A study of Homo sapiens with 32 samples.

Results

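The SR proteins and the heterogeneous nuclear ribonucleoproteins (hnRNPs) are RNA-binding proteins that steer splice site choice, and the expression of their genes was followed in HEK293T cells that had lost IGF2BP1, IGF2BP2 or IGF2BP3. The genes were taken from the count tables by name: SRSF followed by a number, or HNRNP followed by a letter, with names of pseudogenes left out. This gave 41 of 62703 rows, namely 12 SR protein genes (SRSF1 to SRSF12), 20 hnRNP genes, 6 copies of HNRNPA1 or HNRNPC (HNRNPA1L2, HNRNPA1L3 and HNRNPCL1 to HNRNPCL4), and 3 loci that only carry an hnRNP name because they lie beside or run through such a gene (HNRNPD-DT, HNRNPK-AS1 and HNRNPUL2-BSCL2). A further 134 rows with pseudogene names were left out. In every RNA kind, 34 of the 41 passed the filter on low counts: all 12 SR genes, all 20 hnRNP genes, HNRNPA1L3 and HNRNPD-DT. The other 7 had at most 14 counts in any library and were not tested.

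SR proteins carry RNA recognition motifs and a domain rich in arginine and serine, bind exonic enhancers and promote the use of nearby splice sites. hnRNPs coat nascent transcripts and often oppose SR proteins by binding silencers, and several of them also act on export, stability and translation in the cytoplasm. Many genes of both families are known to regulate their own mRNA through poison exons or retained introns, which lead to decay or to retention in the nucleus. IGF2BP1, IGF2BP2 and IGF2BP3 are related KH-domain proteins that bind mRNAs, mostly in the cytoplasm.

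HEK293T is an established line of human embryonic kidney origin. According to the labels, cells were transfected with non-integrating plasmids that carried guide RNAs against 1 gene and a GFP reporter, single GFP-positive cells were sorted, and 1 clone per gene was kept; the control received a guide RNA with no target. Whether the control is a clone or a pool is not given in the labels. Total, nuclear and cytoplasmic RNA were each sequenced as poly(A) libraries, 32 in all: per RNA kind 4 control libraries (batches 1 to 4), 2 of the IGF2BP1 knockout (batches 1 and 2), and 2 each of the IGF2BP2 and IGF2BP3 knockouts (batches 3 and 4). The cytoplasmic IGF2BP3 knockout had 2 further libraries in batch 5, which held no control. Cytoplasmic levels listed for the IGF2BP3 knockout are those of batches 3 and 4 unless batch 5 is named. Because a knockout is a single clone, p-values measure the spread between libraries, and a property of the clone cannot be told apart from the loss of the gene.

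Depth ran from 13689067 to 26119480 counts per library, of which the 41 genes took 1.29% to 1.85%. In total RNA the targeted genes changed in their own knockout by -4.23 (IGF2BP1), -1.31 (IGF2BP2) and -1.19 (IGF2BP3) on the log2 scale. Family members that were not targeted differed as well, in normalised CPM (counts scaled to the library total, adjusted by TMM). IGF2BP1 was at 315 to 348 in the IGF2BP2 and 305 to 332 in the IGF2BP3 knockout, against 424 to 501 in controls. IGF2BP3 was at 65.7 to 66.4 in the IGF2BP2 knockout (controls 85.5 to 92.4). IGF2BP2 was at 68.2 to 76.5 in the IGF2BP3 knockout (controls 78.7 to 111). In the IGF2BP1 knockout the ranges of IGF2BP2 and IGF2BP3 overlapped those of controls. VIM (379 to 866 CPM, that is counts scaled to the library total) and KRT18 (38.1 to 101 CPM) were detected in every library, as in HEK293 lines, while the blood markers PTPRC and CD3E were at 0 in 23 and 30 of the 32 libraries. One library appeared under 2 labels: total RNA of the IGF2BP1 knockout, replicate 2, and nuclear RNA of the same knockout, replicate 1, held the same 21232940 counts with 0 of 62703 rows differing. Its log2 CPM correlated at 0.995 with the other nuclear library of that knockout and at 0.99 with the other total library, across genes. Counts of called members and fitted changes of single members in the affected IGF2BP1 knockout comparisons are therefore given with and without it. These comparisons are total RNA, nuclear RNA and the ratio between fractions. Medians, shares of all genes, levels per library, and values of marker and other splicing genes are given only with it.

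Values per library below are normalised CPM, for which the library total was scaled by TMM, and changes are log2 of knockout over control from edgeR quasi-likelihood fits with a batch term. A gene was called at an adjusted p under 0.05 (Benjamini-Hochberg over all genes tested). In the main fits the share of all genes called accompanies counts of family members, because it is high in these data. It is not given for refits that leave out libraries or change a setting. Whether counts in those refits moved with the calls over all genes was not tested. In bulk RNA, fewer cells that hold a transcript and less of it per cell cannot be told apart.

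In total RNA of control cells the levels spanned a wide range once divided by exon length. HNRNPA1, the most abundant member and a classic repressor of exon inclusion, stood at 309 ± 11.4 CPM per kilobase of exon (SD, n = 4). HNRNPK, which binds C-rich RNA, followed at 239 ± 14.9, and HNRNPAB at 224 ± 9.75 CPM per kilobase; the ranges of these neighbours overlapped. HNRNPA2B1 came next at 188 ± 27.0 and SRSF2, the highest SR gene, at 146 ± 6.52 CPM per kilobase. The ranks from HNRNPH1 (96.5 ± 4.60) down to HNRNPR (56.7 ± 4.77 CPM per kilobase) held 14 genes of which each overlapped the next in range. The lowest tested genes were HNRNPLL (7.59 ± 0.669), HNRNPA1L3 (6.19 ± 0.416), SRSF12 (3.55 ± 0.224) and HNRNPD-DT (0.943 ± 0.573 CPM per kilobase).

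In control cells the mRNAs of the SR genes were spread over both fractions, whereas those of the hnRNP genes lay mostly on the cytoplasmic side. Nuclear and cytoplasmic poly(A) RNA were compared over 4 batches, so a positive log2 ratio means a larger share of nuclear than of cytoplasmic poly(A) RNA. Of the 34 tested members 8 were higher in nuclear RNA and 17 in cytoplasmic RNA, or 25 called, against 65.9% of all genes tested (32.6% and 33.3% on the 2 sides). SR genes were called 6 times on the nuclear and 5 times on the cytoplasmic side, and hnRNP genes 2 and 11 times. The median log2 ratio was -0.16 over the members and -0.02 over all genes tested.

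SRSF11 (chr1:70205682-70253052, plus strand), an SR-family splicing protein, had the highest ratio, 1.62 (SE 0.12, adjusted p = 2.17e-11), with batch values of 0.95, 1.51, 2.03 and 1.99 in batches 1 to 4. HNRNPH1 (chr5:179614178-179634784, minus strand), which binds runs of G, had 0.79 (SE 0.07, adjusted p = 2.05e-09) and batch values of 0.63, 0.78, 0.91 and 0.86. SRSF6 (chr20:43457928-43464247, plus strand), an SR protein that promotes exon inclusion, had 0.73 (SE 0.07, adjusted p = 7.53e-09) and batch values of 0.44, 0.67, 0.93 and 0.90. In each of these genes the 2 lowest values were those of batches 1 and 2, so the placement differed between batches in size but not in sign. The other nuclear calls were SRSF7 (0.51), SRSF5 (0.45), SRSF2 (0.35), the nuclear scaffold protein gene HNRNPU (0.34) and SRSF10 (0.18).

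At the cytoplasmic end stood HNRNPUL1 (chr19:41262496-41307598, plus strand), which encodes an hnRNP U-like protein, at -0.94 (SE 0.07, adjusted p = 8.23e-11) with batch values of -0.75, -0.89, -1.14 and -0.99. HNRNPA1L3 (chr16:51553436-51647132, plus strand), a copy of HNRNPA1, was at -0.84 (SE 0.09, adjusted p = 3.63e-08) with batch values of -0.64, -0.71, -1.09 and -0.94. HNRNPA1 itself (chr12:54280193-54287088, plus strand) was at -0.64 (SE 0.09, adjusted p = 7.5e-07) with batch values of -0.42, -0.50, -0.88 and -0.77. HNRNPA1L3 resembles HNRNPA1 closely in sequence, so reads may have been divided between them in a way that was not tested. Of the 7 genes of the A/B and D group, 5 were lower in nuclear RNA (all genes 33.3%), among them HNRNPA0 (-0.56), HNRNPAB (-0.47) and HNRNPD (-0.46). Within the F/H group of G-binding proteins the placement was mixed, with HNRNPH1 nuclear, HNRNPH3 (-0.34) and HNRNPF (-0.31) cytoplasmic, and HNRNPH2 (0.07) not called. The call of HNRNPM (-0.19, adjusted p = 0.025) was lost without any of 6 control libraries (nuclear or cytoplasmic replicate 2, 3 or 4), with an adjusted p of up to 0.161.

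**Figure D1:**
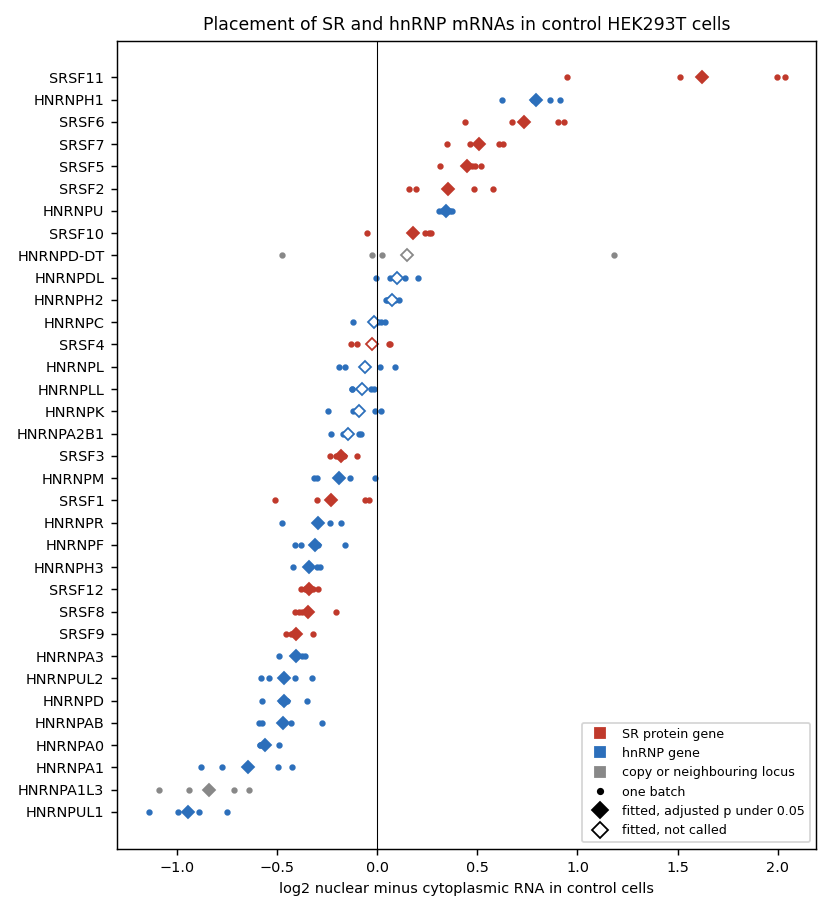
Log2 of nuclear over cytoplasmic RNA in control cells for the 34 tested genes. Small points are the 4 batches, diamonds the fitted values (filled where called), red SR genes, blue hnRNP genes and grey HNRNPA1L3 and HNRNPD-DT. SRSF11 stands apart at 1.62, and HNRNPUL1 lies lowest at -0.94.

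The fractions were separated by their marker genes: 6 of 7 nuclear-retained RNAs were higher in nuclear RNA and 1 was lower (median log2 1.79), 6 of 8 cytoplasmic mRNAs such as GAPDH were lower and 1 was higher (median -0.46), and 8 of 8 mitochondrially encoded mRNAs were lower there (median -2.11). In the annotation, every one of the 12 SR genes has a transcript marked for nonsense-mediated decay and 9 have a retained-intron transcript, compared with 13 and 14 of the 20 hnRNP genes. All 8 SR or hnRNP genes called on the nuclear side have such a decay transcript and 6 a retained-intron transcript. Of these 8 genes 6 are SR genes, so most of the first count follows from the class, and a link with placement was not tested. Among the 16 called on the cytoplasmic side the numbers were 10 and 11, and among the 8 not called 7 and 6. These are counts of annotated transcripts, not of reads, since the tables hold 1 value per gene.

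Loss of IGF2BP2 or of IGF2BP3 went with lower levels of most hnRNP genes in every RNA kind, whereas loss of IGF2BP1 went with smaller changes of both signs. In the IGF2BP2 knockout 24 of the 34 members fell and 6 rose in cytoplasmic RNA, where 64.2% of all genes tested were called, 33.2% as lower. In nuclear RNA 19 fell and 3 rose (all genes 49.7% called, 24.9% lower), and in total RNA 20 fell and 3 rose (all genes 47% called, 23.7% lower). The median change of the members was -0.39 in cytoplasmic, -0.30 in nuclear and -0.40 in total RNA, against 0.01, 0.01 and 0.02 over all genes. The nuclear count of 22 became 12 without control 3, 11 without control 4 and 13 without IGF2BP2 knockout 2. hnRNP genes made up 16, 13 and 13 of the falls in cytoplasmic, nuclear and total RNA, and SR genes 7, 6 and 6.

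With IGF2BP3 knocked out 25 members fell and 5 rose in cytoplasmic RNA (all genes 64.7% called, 33.2% lower), 21 fell and 2 rose in nuclear RNA (50.4% called, 25.3% lower), and 23 fell and 1 rose in total RNA (46.9% called, 23.4% lower). The median changes were -0.51, -0.42 and -0.49 in cytoplasmic, nuclear and total RNA, against 0.02, 0.01 and 0.02 over all genes. Both of these knockouts were set against one set of controls, so their values are set side by side without a measure of likeness. Members called lower in all 3 RNA kinds numbered 17 of 34 with IGF2BP2 lost and 21 of 34 with IGF2BP3 lost, against 16.2% and 18% of the 17587 genes tested in all 3 kinds. With upper quartile scaling, which moved the median of all genes by up to 0.168, the rises and falls in cytoplasmic RNA became 9 and 21 (IGF2BP2) and 8 and 21 (IGF2BP3), those in nuclear RNA of the IGF2BP2 knockout 6 and 17, and those in total RNA of the IGF2BP3 knockout 4 and 21.

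In the IGF2BP1 knockout 8 members rose and 10 fell in cytoplasmic RNA, where 44.4% of all genes tested were called, 22.5% higher and 21.9% lower. In nuclear RNA 2 rose and 1 fell (25.7% of all genes called, 12.7% higher), and in total RNA 9 rose and 1 fell (24.2% called, 10.7% higher). With all libraries used, no SR gene was called in nuclear RNA, with 0 at an unadjusted p under 0.05 and 0 called by DESeq2. This depended on the library that carries both labels, since without it SRSF11 changed by -0.52 in nuclear RNA. The median changes of the members were -0.01, -0.05 and 0.10 in cytoplasmic, nuclear and total RNA. Without the library that carries both labels, 3 rose and 2 fell in nuclear RNA and 8 rose and 1 fell in total RNA. The count in total RNA depended on single libraries: it was 22 without control 1 or IGF2BP1 knockout 1, 6 without control 3 or control 4, and 4 without any library of the other knockouts. In cytoplasmic RNA it was 9 without control 2 or IGF2BP1 knockout 2, and in nuclear RNA 1 without control 3 and 5 without control 1. The shares of all genes called in these refits are not given. Without the batch term 3 members were called in cytoplasmic and 4 in total RNA.

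**Figure D2:**
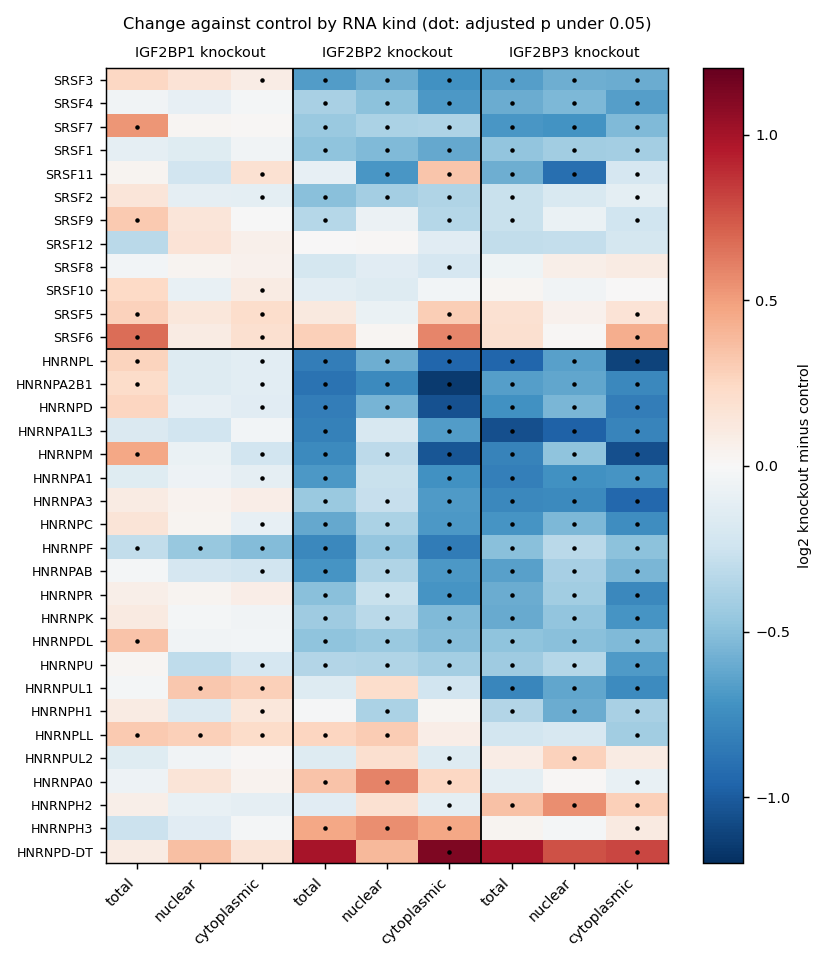
Fitted log2 change of each knockout against control for the 34 tested genes (rows, SR genes above the line) in total, nuclear and cytoplasmic RNA (columns), with a dot where the adjusted p was under 0.05. Blue (lower) fills most hnRNP rows in the IGF2BP2 and IGF2BP3 columns, while SRSF5 and SRSF6 are red (higher) in cytoplasmic RNA of every knockout.

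Among the SR genes, those of SRSF1, SRSF3, SRSF4 and SRSF7 fell in every RNA kind of both the IGF2BP2 and the IGF2BP3 knockout. In cytoplasmic RNA of the IGF2BP3 knockout these falls rest on the libraries that had a control in their batch. In the further libraries, whose batch held no control, SRSF1 stood at 274 and 274 CPM, within the control range of 229 to 307 CPM. SRSF4 stood there at 245.5 and 241.5 CPM, just below the controls at 245.9 to 275.2 CPM. SRSF3 and SRSF7 lay below every control in those libraries. SRSF3, the smallest SR protein and an adaptor for mRNA export, changed by -0.67 in total, -0.59 in nuclear and -0.73 in cytoplasmic RNA after loss of IGF2BP2, and by -0.67, -0.58 and -0.60 in the IGF2BP3 knockout. SRSF7, also an export adaptor, changed by -0.45, -0.38 and -0.37 and by -0.70, -0.72 and -0.53 in the same order. SRSF2 fell in all kinds of the IGF2BP2 knockout but was not called in nuclear RNA of the IGF2BP3 knockout (-0.19, adjusted p = 0.138). SRSF12 was not called against control in any knockout or RNA kind, and SRSF10 only in cytoplasmic RNA of the IGF2BP1 knockout (0.10).

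SRSF5 and SRSF6 went the other way in cytoplasmic RNA, where both were called higher in every knockout. Cytoplasmic SRSF6 stood at 191, 181, 152 and 143 CPM in the 4 controls, 216 and 208 in the IGF2BP1, 217 and 224 in the IGF2BP2 and 200.4 and 199 in the IGF2BP3 knockout. Every knockout library lay above every control library. The changes were 0.19 (SE 0.04, adjusted p = 0.000186), 0.58 (SE 0.04, adjusted p = 1.72e-14) and 0.44 (SE 0.04, adjusted p = 1.95e-11) by edgeR. In nuclear RNA SRSF6 stood at 276, 305, 307 and 283 CPM in controls, 333 and 290.5 in the IGF2BP1, 301 and 298 in the IGF2BP2 and 300.1 and 296 in the IGF2BP3 knockout. The nuclear groups overlapped, and no knockout was called. In total RNA SRSF6 was called in the IGF2BP1 knockout alone, at 0.67 (SE 0.12, adjusted p = 0.00148), from 221 and 332 CPM against 172, 168, 212 and 212 in controls. The higher of these libraries is the one that carries both labels, and without it the change was 0.37 (adjusted p = 0.00134). SRSF5 changed by 0.21, 0.30 and 0.16 in cytoplasmic RNA of the IGF2BP1, IGF2BP2 and IGF2BP3 knockouts. For SRSF5 the IGF2BP3 libraries of batch 5 stood at 248 and 246 CPM, within the control range of 239 to 257 CPM, so the rise there rests on batches 3 and 4 (296 and 278 CPM).

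SRSF11 changed in opposite directions in the 2 fractions of the IGF2BP2 knockout. Its nuclear level was 545, 743, 972 and 900.0 CPM in controls, 570.0 and 515 in the IGF2BP1, 627 and 532 in the IGF2BP2 and 485 and 514 in the IGF2BP3 knockout. Its cytoplasmic level was 266, 245, 224 and 213 CPM in controls, 292 and 288, 271 and 280.3 and 192 and 187 in the same knockouts. The batch 5 libraries of the IGF2BP3 knockout stood at 214 and 225 CPM, within the range of the controls, whereas those of batches 3 and 4 lay below it. Nuclear controls of batches 1 and 2 were the lowest, and the IGF2BP2 knockout overlapped them but lay below both controls of its own batches. In the IGF2BP2 knockout the nuclear change was -0.69 (SE 0.12, adjusted p = 3.83e-06) and the cytoplasmic change 0.34 (SE 0.04, adjusted p = 6.58e-09). Both fractions were lower in the IGF2BP3 knockout, -0.90 (SE 0.12, adjusted p = 1.72e-08) and -0.20 (SE 0.04, adjusted p = 5.23e-05), and with upper quartile scaling the cytoplasmic call was lost, at -0.04 (adjusted p = 0.443). Total SRSF11 RNA stood at 539.6, 551, 605 and 590.3 CPM in controls and at 414 and 384 in the IGF2BP3 knockout, a change of -0.58 (SE 0.08, adjusted p = 5.94e-05). In the IGF2BP1 knockout the nuclear change was -0.23 (SE 0.12, adjusted p = 0.153), and -0.52 (adjusted p = 0.000859) without the library that carries both labels.

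In the A/B and D group, 6 of 7 genes fell in cytoplasmic RNA when IGF2BP2 was lost, and 7 of 7 when IGF2BP3 was lost (all genes 33.2% and 33.2% lower). HNRNPA2B1 (chr7:26173057-26201529, minus strand), known for sorting and processing of small RNAs as well as for splicing, fell most in the IGF2BP2 knockout. Its cytoplasmic level was 2213, 2216, 2239.8 and 2202 CPM in controls, 2054 and 1994 in the IGF2BP1, 988 and 1020.1 in the IGF2BP2 and 1311 and 1285 in the IGF2BP3 knockout. Its nuclear level was 2225, 2210.0, 2024 and 2076, 1825 and 2174, 1271 and 1147 and 1288 and 1377 CPM in the same order. In both fractions the IGF2BP2 and IGF2BP3 knockouts lay below all controls, while the IGF2BP1 knockout was below all controls only in cytoplasmic RNA. In the IGF2BP2 knockout the cytoplasmic change was -1.15 (SE 0.03, adjusted p = 3.43e-24), the nuclear -0.76 (SE 0.13, adjusted p = 2.03e-06) and the total -0.88 (SE 0.08, adjusted p = 1.86e-06). The IGF2BP3 knockout gave -0.77, -0.62 and -0.66, all called. The IGF2BP1 knockout had -0.13 in cytoplasmic RNA and 0.22 in total RNA, and the second call was lost without the library that carries both labels, at 0.21 (adjusted p = 0.0609), and under 14 of 20 alternatives in all. The first was lost without control 2 or IGF2BP1 knockout 2, at an adjusted p of 0.129 and 0.126. HNRNPA2B1 overlaps CBX3 on the opposite strand, and whether reads were counted by strand is not given in the sources used here.

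HNRNPD (chr4:82352498-82374503, minus strand), which binds AU-rich elements and promotes decay of mRNAs that carry them, behaved alike in direction. Cytoplasmic HNRNPD stood at 772, 786, 742 and 718 CPM in controls, 729 and 692 in the IGF2BP1, 352 and 357 in the IGF2BP2 and 407 and 415 in the IGF2BP3 knockout of batches 3 and 4. The IGF2BP3 libraries of batch 5, which have no control beside them, stood at 681 and 668 CPM. The IGF2BP2 knockout and the batch 3 and 4 libraries of the IGF2BP3 knockout lay well below every control, and batch 5 lay closer to the controls. Changes in the IGF2BP2 knockout were -1.04 (SE 0.04, adjusted p = 1.4e-22) in cytoplasmic, -0.55 (SE 0.11, adjusted p = 3.81e-05) in nuclear and -0.83 (SE 0.09, adjusted p = 1.08e-05) in total RNA. In the IGF2BP3 knockout they were -0.83, -0.55 and -0.73, all called. Of the 34 members, 31 were higher in batch 5 than in batches 3 and 4 of the same clone (median log2 0.29, range -0.30 to 0.71), a difference that the batch term takes up.

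HNRNPA1 stood at 1538, 1510.3, 1605 and 1635 CPM in total RNA of controls, 1487 and 1275 in the IGF2BP1, 988 and 1022 in the IGF2BP2 and 857 and 978 in the IGF2BP3 knockout. In cytoplasmic RNA it stood at 1890.4, 1916, 2220.0 and 2166, 1778 and 1743, 1326 and 1326 and 1342 and 1345 CPM. In both kinds every knockout library lay below every control. It fell in total and cytoplasmic RNA of the IGF2BP2 knockout (-0.69 and -0.73) but its nuclear change of -0.27 (SE 0.12, adjusted p = 0.0561) was not called. The gene fell in every RNA kind of the IGF2BP3 knockout, with changes in total, in nuclear and in cytoplasmic RNA of -0.82 (SE 0.08, adjusted p = 5.77e-06), -0.72 (SE 0.12, adjusted p = 2.12e-06) and -0.71 (SE 0.03, adjusted p = 5.19e-19).

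The copy HNRNPA1L3 had the largest mean fall in the IGF2BP3 knockout. In total RNA it stood at 10.9, 12.8, 12.2 and 11.8 CPM in controls, 12.9 and 8.23 in the IGF2BP1, 7.11 and 6.59 in the IGF2BP2 and 5.64 and 5.90 in the IGF2BP3 knockout. In nuclear RNA the values were 10.5, 10.3, 8.98 and 11.2, 8.24 and 9.48, 8.42 and 9.12 and 5.42 and 4.79 CPM. The IGF2BP3 libraries were below all controls in both kinds, and the IGF2BP2 libraries only in total RNA. Its changes in the IGF2BP3 knockout were -1.05 (SE 0.18, adjusted p = 0.000464) in total, -0.97 (SE 0.17, adjusted p = 3.36e-06) in nuclear and -0.79 (SE 0.09, adjusted p = 1.79e-09) in cytoplasmic RNA. In the IGF2BP2 knockout it fell in total (-0.81) and cytoplasmic RNA (-0.67), and the first call was lost without IGF2BP2 knockout 2, at -0.75 (adjusted p = 0.0646). The 74 rows with names of HNRNPA1 pseudogenes held 0.886% as many counts as HNRNPA1.

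HNRNPA3 (chr2:177212563-177223958, plus strand), a close relative of HNRNPA1 and HNRNPA2B1, stood at 805, 803, 818 and 800.2 CPM in cytoplasmic RNA of controls, 855 and 841 in the IGF2BP1, 499.7 and 511 in the IGF2BP2 and 425 and 419 in the IGF2BP3 knockout. In nuclear RNA it stood at 659, 663, 619 and 643, 627 and 739.6, 534 and 506 and 360.0 and 384 CPM. Among the libraries of batches 1 to 4 the IGF2BP3 knockout was lowest in both fractions. Its changes there were -0.94 (SE 0.03, adjusted p = 7.01e-22) in cytoplasmic, -0.76 (SE 0.11, adjusted p = 1.05e-07) in nuclear and -0.78 (SE 0.09, adjusted p = 1.35e-05) in total RNA. The falls in the IGF2BP2 knockout were smaller, at -0.68, -0.28 and -0.45, and the nuclear call was lost without any of 4 libraries (control 3, control 4, IGF2BP2 knockout 1 or 2), with adjusted p up to 0.36.

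HNRNPA0 (chr5:137745651-137754376, minus strand), a single-exon gene of the same group, rose in the IGF2BP2 knockout. Its nuclear level was 277, 263, 228 and 234 CPM in controls, 278 and 325 in the IGF2BP1, 349 and 347 in the IGF2BP2 and 232 and 233 in the IGF2BP3 knockout. Its cytoplasmic level was 366, 367, 322 and 331, 378 and 376, 389 and 384 and 309 and 304 CPM. The IGF2BP2 knockout lay above every control in both fractions. The change was 0.59 (SE 0.10, adjusted p = 3.99e-06) in nuclear, 0.24 (SE 0.04, adjusted p = 3.23e-07) in cytoplasmic and 0.35 (SE 0.10, adjusted p = 0.0121) in total RNA; the total call was lost without control 3, control 4 or either IGF2BP2 library, at an adjusted p of up to 0.17. In cytoplasmic RNA of the IGF2BP3 knockout it was called lower, at -0.09 (SE 0.04, adjusted p = 0.0269). That call was lost under 12 of 22 alternatives and turned to 0.078 with upper quartile scaling.

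In the F/H group the members moved apart. HNRNPF (chr10:43385617-43409166, minus strand), which binds G-runs, is the only one of the 34 that was called in the same direction in every RNA kind of every knockout; 1.6% of all genes were lower in each of these comparisons. In total RNA it stood at 395, 386, 409.7 and 426 CPM in controls, 309 and 331 in the IGF2BP1, 246 and 244 in the IGF2BP2 and 302 and 289 in the IGF2BP3 knockout. In cytoplasmic RNA the values were 529, 539, 446 and 463, 369.6 and 377, 255 and 252 and 314 and 332 CPM. No knockout library of batches 1 to 4 reached the lowest control in either kind, and the IGF2BP2 knockout was lowest. The IGF2BP2 and IGF2BP3 knockouts share the controls of batches 3 and 4, whereas the IGF2BP1 knockout was set against those of batches 1 and 2. All 3 share an estimate of spread within each RNA kind, so these are not 3 independent comparisons.

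In the IGF2BP1 knockout HNRNPF changed by -0.52 (SE 0.04, adjusted p = 6.69e-14) in cytoplasmic, -0.45 (SE 0.10, adjusted p = 0.000721) in nuclear and -0.29 (SE 0.08, adjusted p = 0.0222) in total RNA. Without the library that carries both labels the nuclear and total changes were -0.31 (adjusted p = 0.038) and -0.35 (adjusted p = 0.00195). The total call was lost under 9 of 20 alternatives, 4 of them leaving out a library of another knockout, with log2 changes from -0.35 to -0.23. The IGF2BP2 knockout had -0.84, -0.47 and -0.77 and the IGF2BP3 knockout -0.49, -0.32 and -0.50 in cytoplasmic, nuclear and total RNA. The nuclear call in the IGF2BP3 knockout was lost without control 3, control 4 or either IGF2BP3 library, at an adjusted p of up to 0.177.

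HNRNPH2 (chrX:101408295-101414133, plus strand), which encodes a protein close to HNRNPH1, was the only member called higher in all RNA kinds of the IGF2BP3 knockout (17.1% of all genes were). In nuclear RNA it stood at 182, 177, 157 and 168 CPM in controls, 149.9 and 189 in the IGF2BP1, 179 and 189.9 in the IGF2BP2 and 236 and 242 in the IGF2BP3 knockout. In total RNA the values were 143, 145, 149 and 162, 153 and 149.6, 146 and 136 and 203 and 193 CPM. The IGF2BP3 knockout was above every control in both kinds. It changed by 0.56 (SE 0.10, adjusted p = 6.84e-06) in nuclear, 0.35 (SE 0.09, adjusted p = 0.00602) in total and 0.28 (SE 0.05, adjusted p = 2.15e-06) in cytoplasmic RNA, and the total call was lost without control 3 or either IGF2BP3 library (adjusted p up to 0.172). In cytoplasmic RNA of the IGF2BP2 knockout it was called lower, at -0.12 (SE 0.05, adjusted p = 0.0259), a call lost under 9 of 22 alternatives and turned to 0.028 by upper quartile scaling.

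HNRNPH3 (chr10:68331174-68343191, plus strand) rose in the IGF2BP2 knockout instead. Its total level was 267, 277, 249 and 253 CPM in controls, 249.9 and 206 in the IGF2BP1, 358 and 337 in the IGF2BP2 and 255 and 260.0 in the IGF2BP3 knockout. Its nuclear level was 239, 249.8, 225 and 237, 207 and 239.9, 358 and 324 and 222 and 233 CPM. The IGF2BP2 libraries lay above all controls in both kinds. The change was 0.56 (SE 0.10, adjusted p = 8.2e-06) in nuclear, 0.47 (SE 0.09, adjusted p = 0.00126) in total and 0.46 (SE 0.04, adjusted p = 5.29e-13) in cytoplasmic RNA. The total call was lost without IGF2BP2 knockout 1, at 0.41 (adjusted p = 0.0612). HNRNPH1 in turn fell in every RNA kind of the IGF2BP3 knockout (-0.35 in total, -0.59 in nuclear and -0.39 in cytoplasmic RNA), its total call being lost without control 3 or IGF2BP3 knockout 1 (adjusted p = 0.0563 and 0.109). In nuclear RNA HNRNPH1 stood at 1114, 1223, 977 and 923 CPM in controls, 1059.7 and 1027 in the IGF2BP1, 739 and 717 in the IGF2BP2 and 601 and 658 in the IGF2BP3 knockout. The nuclear change of HNRNPH1 in the IGF2BP2 knockout, -0.38 (SE 0.11, adjusted p = 0.00467), lost its call without control 3, control 4 or either IGF2BP2 library (adjusted p up to 0.213).

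HNRNPL (chr19:38836388-38852347, minus strand), which binds CA repeats, fell in both knockouts of batches 3 and 4. Its cytoplasmic level was 578, 571, 569 and 552 CPM in controls, 520.0 and 530.1 in the IGF2BP1, 287 and 293 in the IGF2BP2 and 257 and 260.1 in the IGF2BP3 knockout. Its nuclear level was 654, 611, 529 and 524, 533 and 602, 345 and 355 and 339.8 and 332 CPM. The IGF2BP2 and IGF2BP3 libraries of batches 3 and 4 lay below all controls in both fractions, and the batch 5 libraries of the IGF2BP3 knockout stood at 363 and 380.3 CPM. Changes were -1.11 (SE 0.04, adjusted p = 3.29e-23) in cytoplasmic, -0.65 (SE 0.11, adjusted p = 1.77e-06) in nuclear and -0.95 (SE 0.08, adjusted p = 2.07e-06) in total RNA of the IGF2BP3 knockout. In the IGF2BP2 knockout they were -0.95 (SE 0.04, adjusted p = 1.92e-21), -0.59 (SE 0.11, adjusted p = 1.02e-05) and -0.83 (SE 0.08, adjusted p = 6.86e-06) in that order. In the IGF2BP1 knockout HNRNPL was called lower in cytoplasmic RNA (-0.13) and higher in total RNA (0.27); without the library that carries both labels the total change was 0.18 (adjusted p = 0.11), and without control 1 or IGF2BP1 knockout 1 the cytoplasmic call was lost (adjusted p = 0.142 and 0.149).

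HNRNPLL (chr2:38561978-38603586, minus strand), the related gene known for CD45 splicing in lymphocytes, was called higher in every RNA kind of the IGF2BP1 knockout (4.22% of all genes were). It was the only such member when all libraries were used. Without the library that carries both labels HNRNPUL1, higher in cytoplasmic RNA, also rose by 0.54 in nuclear and 0.25 in total RNA. In nuclear RNA HNRNPLL stood at 47.8, 44.9, 44.4 and 47.5 CPM in controls, 54.0 and 59.1 in the IGF2BP1, 54.8 and 58.6 in the IGF2BP2 and 41.3 and 39.4 in the IGF2BP3 knockout. In cytoplasmic RNA the values were 49.1, 43.3, 45.7 and 45.3, 52.9 and 54.6, 46.9 and 49.1 and 33.4 and 34.6 CPM. The IGF2BP1 knockout lay above all controls in both fractions and the IGF2BP3 knockout below all of them. IGF2BP1 knockout changes were 0.29 (SE 0.10, adjusted p = 0.0224) in nuclear, 0.22 (SE 0.06, adjusted p = 0.00355) in cytoplasmic and 0.31 (SE 0.10, adjusted p = 0.042) in total RNA. Without the library that carries both labels the nuclear and total changes were 0.40 (adjusted p = 0.0109) and 0.29 (adjusted p = 0.043). These calls were lost under 8 of 20, 3 of 22 and 12 of 20 alternatives in the same order; the nuclear change was 0.18 (adjusted p = 0.337) without control 2, and the cytoplasmic 0.11 (adjusted p = 0.356). In the IGF2BP3 knockout it fell in cytoplasmic RNA (-0.42) and missed the threshold in nuclear (-0.19, adjusted p = 0.108) and total RNA (-0.22, adjusted p = 0.0882).

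HNRNPM (chr19:8444767-8489114, plus strand), which binds GU-rich RNA, stood at 669, 688, 569 and 607 CPM in cytoplasmic RNA of controls, 604 and 552 in the IGF2BP1, 289 and 289 in the IGF2BP2 and 281 and 284 in the IGF2BP3 knockout. In nuclear RNA it stood at 708, 663, 485 and 522, 601 and 699, 415 and 396 and 352 and 368 CPM. Both the IGF2BP2 and the IGF2BP3 knockout were below all controls in each fraction, and the gap was wider in cytoplasmic RNA. The cytoplasmic and nuclear changes were -1.02 (SE 0.04, adjusted p = 3.5e-21) and -0.31 (SE 0.11, adjusted p = 0.0145) in the IGF2BP2 knockout, and -1.06 (SE 0.04, adjusted p = 1.69e-21) and -0.49 (SE 0.11, adjusted p = 0.000219) in the IGF2BP3 knockout. The nuclear call in the IGF2BP2 knockout was lost without control 3, control 4 or either IGF2BP2 library (adjusted p up to 0.273). In the IGF2BP1 knockout HNRNPM rose in total RNA, at 0.46 (SE 0.09, adjusted p = 0.0021), and at 0.38 (adjusted p = 0.001) without the library that carries both labels, and fell in cytoplasmic RNA, at -0.23 (SE 0.04, adjusted p = 7.37e-06).

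HNRNPUL1 was higher than control in one knockout and lower in another. In cytoplasmic RNA it stood at 638, 640.0, 657 and 648 CPM in controls, 773 and 780.1 in the IGF2BP1, 569 and 544 in the IGF2BP2 and 379 and 395 in the IGF2BP3 knockout. In nuclear RNA it stood at 403, 366, 317 and 346, 435 and 529, 386 and 378 and 214 and 216 CPM. In both fractions the IGF2BP1 knockout lay above every control and the IGF2BP3 knockout below every control. The cytoplasmic changes were 0.28 (SE 0.04, adjusted p = 8.93e-08) in the IGF2BP1, -0.23 (SE 0.04, adjusted p = 1.66e-06) in the IGF2BP2 and -0.75 (SE 0.04, adjusted p = 1.7e-18) in the IGF2BP3 knockout. The nuclear changes were 0.32 (SE 0.11, adjusted p = 0.0204), 0.21 (SE 0.11, adjusted p = 0.104) and -0.62 (SE 0.11, adjusted p = 4.24e-06), of which the second was not called. Without the library that carries both labels the IGF2BP1 knockout changed by 0.54 (adjusted p = 0.000344) in nuclear and 0.25 (adjusted p = 0.0268) in total RNA, where the value with it was -0.02 (SE 0.11, adjusted p = 0.909). The nuclear call was lost without control 2, 3 or 4 or IGF2BP1 knockout 2, at an adjusted p of up to 0.55. HNRNPUL1 overlaps TGFB1 on the opposite strand.

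**Figure D3:**
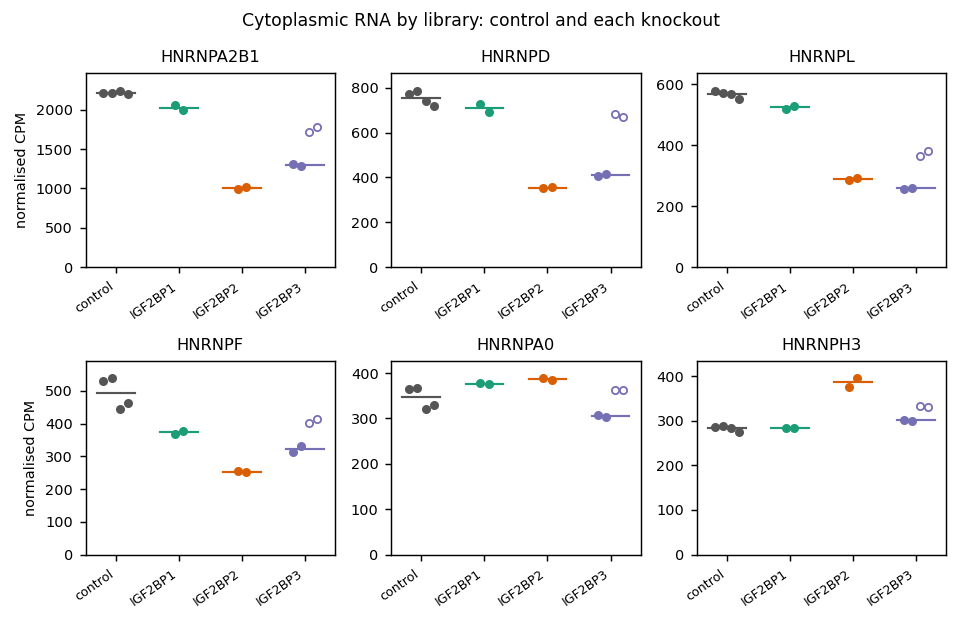
Normalised CPM in each cytoplasmic library for 6 hnRNP genes, by genotype; lines are group means of the filled points, and open points are the 2 IGF2BP3 knockout libraries of batch 5, which have no control. HNRNPA2B1, HNRNPD, HNRNPL and HNRNPF are lower in every IGF2BP2 and IGF2BP3 knockout library than in all 4 controls, while HNRNPA0 and HNRNPH3 are highest in the IGF2BP2 knockout.

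Promoter sequence was available in the RefSeq table (GRCh38.p14) for 37 of the 41 members, with 51 start sites. Shown are the 250 bases before the start of 3 members that moved in different ways (SRSF6, raised in the cytoplasm of every knockout; HNRNPH1, lowered in the nucleus of the IGF2BP2 and IGF2BP3 knockouts; HNRNPL, lowered in every RNA kind of both), because these windows overlap no exon of GENCODE 29; for HNRNPH1 and HNRNPL the most upstream of 4 and 2 starts was taken. They lie at chr20:43457646-43457895 (plus strand), chr5:179634785-179635034 and chr19:38852348-38852597 (both minus strand), and are written 5′ to 3′ with matches to the CCAAT box, the GC box GGGCGG, the ETS core CCGGAA, the E-box CACGTG or the TATA motif TATAAA on either strand in capitals.
SRSF6: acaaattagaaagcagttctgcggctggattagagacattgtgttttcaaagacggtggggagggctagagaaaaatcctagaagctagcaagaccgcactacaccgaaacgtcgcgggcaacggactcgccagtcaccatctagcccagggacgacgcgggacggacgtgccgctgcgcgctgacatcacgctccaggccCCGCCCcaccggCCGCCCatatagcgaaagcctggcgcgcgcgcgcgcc
HNRNPH1: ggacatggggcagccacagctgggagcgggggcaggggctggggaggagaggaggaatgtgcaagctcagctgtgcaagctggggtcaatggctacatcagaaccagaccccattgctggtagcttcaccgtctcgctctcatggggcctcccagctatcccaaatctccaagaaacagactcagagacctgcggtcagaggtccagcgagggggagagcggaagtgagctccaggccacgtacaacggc
HNRNPL: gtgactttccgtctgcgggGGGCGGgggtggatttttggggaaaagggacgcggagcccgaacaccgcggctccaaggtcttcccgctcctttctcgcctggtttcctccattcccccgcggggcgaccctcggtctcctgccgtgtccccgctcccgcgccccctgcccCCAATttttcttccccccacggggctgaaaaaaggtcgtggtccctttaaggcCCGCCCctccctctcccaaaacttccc

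SRSF6 held 2 matches to the GC box GGGCGG, HNRNPL held 2 and also 1 match to CCAAT, and HNRNPH1 held none of the 5 motifs. Over the 51 member windows CCAAT was present in 24 (47.1%), against 32.0% of all 35116 windows of this length. GGGCGG was present in 28 (54.9%, all windows 42.6%), CCGGAA in 8 (15.7%, all 14.5%), the E-box CACGTG in 7 (13.7%, all 6.34%) and TATAAA in 6 (11.8%, all 10.7%). A match says only that these letters occur in the window.

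The IGF2BP3 and IGF2BP2 knockouts were also compared with each other, since they shared batches 3 and 4. In cytoplasmic RNA 24 of 34 members were called (11 higher and 13 lower in the IGF2BP3 knockout), against 62.7% of all genes (31.3% higher, 31.5% lower); in nuclear RNA 9 (1 higher, 8 lower; all genes 48.2%, 24.1% lower) and in total RNA 11 (4 higher, 7 lower; all genes 43.3%, 21.5% lower). HNRNPUL1 differed in every RNA kind, by -0.62 (SE 0.11, adjusted p = 0.000552) in total, -0.83 (SE 0.11, adjusted p = 1.29e-08) in nuclear and -0.52 (SE 0.04, adjusted p = 2.69e-14) in cytoplasmic RNA. HNRNPLL was lower in the IGF2BP3 knockout by 0.48, 0.49 and 0.50, HNRNPA0 by 0.47, 0.58 and 0.34, and HNRNPH3 by 0.43, 0.58 and 0.36. HNRNPH2 was higher there by 0.49, 0.37 and 0.40. In total RNA these calls were lost without IGF2BP2 knockout 1 (HNRNPLL and HNRNPH3), IGF2BP2 knockout 2 (HNRNPA0 and HNRNPH2), IGF2BP3 knockout 1 (HNRNPH3) or IGF2BP3 knockout 2 (HNRNPLL and HNRNPA0), at adjusted p up to 0.091. HNRNPA2B1 was higher in the IGF2BP3 knockout in cytoplasmic RNA (0.37) and in total RNA (0.22), the second lost without any single IGF2BP2 or IGF2BP3 library. HNRNPL and HNRNPM, which fell in both, differed by -0.12 (SE 0.08, adjusted p = 0.261) and -0.03 (SE 0.09, adjusted p = 0.788) in total RNA and were not called. The counts of calls moved with single libraries: they were 4 or 5 in total RNA without 1 library of either knockout, and without any 1 library of batches 1 or 2 they were 18 or 19 in total and 14 in nuclear RNA. Without the batch term the count in cytoplasmic RNA was 15.

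With IGF2BP2 lost, the balance between nucleus and cytoplasm moved towards the cytoplasm for the 3 most nuclear members, SRSF11, HNRNPH1 and SRSF6, and towards the nucleus for 10 hnRNP genes; placement and shift share the control libraries. Whether a knockout moved a gene's nuclear to cytoplasmic ratio was tested as an interaction. In the IGF2BP2 knockout 14 of 34 members were called, 10 with a higher and 4 with a lower ratio (all genes 18% called, 8.68% higher and 9.35% lower). The 4 lower ratios were those of SRSF11, SRSF6, SRSF5 and HNRNPH1, and the 10 higher ratios were all of hnRNP genes. In the IGF2BP3 knockout 4 were called, SRSF11 and SRSF6 lower and HNRNPM and HNRNPL higher (all genes 10.2% called, 6.06% lower and 4.1% higher). In the IGF2BP1 knockout none was called (all genes 2.99% called, 1.9% higher and 1.09% lower), with 2 at an unadjusted p under 0.05 and 1 called by DESeq2. Without the library that carries both labels 4 were called there: SRSF11, SRSF10 at -0.39 (adjusted p = 0.00479) and HNRNPH1 at -0.40 (adjusted p = 0.00441) with a lower ratio, and HNRNPM at 0.30 (adjusted p = 0.0347) with a higher one.

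For SRSF11 the log2 ratio in controls was 0.89, 1.45, 1.99 and 1.94 in batches 1 to 4. It was 0.83 and 0.71 in the IGF2BP1 knockout (batches 1 and 2), 1.04 and 0.74 with IGF2BP2 lost, and 1.14 and 1.26 with IGF2BP3 lost (batches 3 and 4). In each batch the knockout was below the control of that batch, but the control of batch 1 lay within the range of the knockouts. The change was -1.07 (SE 0.13, adjusted p = 1.71e-06) in the IGF2BP2, -0.76 (SE 0.13, adjusted p = 0.000327) in the IGF2BP3 and -0.40 (SE 0.13, adjusted p = 0.0837) in the IGF2BP1 knockout. Without the library that carries both labels the last was -0.72 (adjusted p = 3.42e-05). Without the batch term the IGF2BP3 value was -0.39 (adjusted p = 0.333).

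SRSF6 had log2 ratios of 0.38, 0.61, 0.89 and 0.85 in controls, 0.30 and 0.23 with IGF2BP2 lost, and 0.39 and 0.38 with IGF2BP3 lost. Its change was -0.60 (SE 0.10, adjusted p = 0.000188) and -0.49 (SE 0.10, adjusted p = 0.00274). Here both knockouts were below both controls of their batches, and the control of batch 1 stood at their level. The second call was lost without cytoplasmic control 4, at -0.43 (adjusted p = 0.054), and without the batch term, at -0.29 (adjusted p = 0.271); the first was lost without the batch term, at -0.41 (adjusted p = 0.0573). HNRNPH1 changed by -0.45 (SE 0.10, adjusted p = 0.00342) in the IGF2BP2 knockout, a call lost without nuclear control 3, at -0.38 (adjusted p = 0.0562).

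HNRNPM had log2 ratios of -0.06, -0.20, -0.36 and -0.35 in controls, 0.35 and 0.27 in the IGF2BP2 and 0.13 and 0.17 in the IGF2BP3 knockout. It was above all controls in both. The change was 0.67 (SE 0.11, adjusted p = 7.32e-05) and 0.51 (SE 0.11, adjusted p = 0.00229), and without the batch term the second was 0.38 (adjusted p = 0.221). HNRNPL rose in ratio by 0.41 (SE 0.10, adjusted p = 0.00854) in the IGF2BP3 knockout and by 0.32 (SE 0.10, adjusted p = 0.0265) in the IGF2BP2 knockout. The HNRNPL calls were lost under 5 of 27 and 11 of 27 alternatives, among them leaving out nuclear control 3 or 4 or cytoplasmic control 3. HNRNPD rose in ratio by 0.45 (SE 0.11, adjusted p = 0.00511) in the IGF2BP2 knockout, lost without nuclear control 3, nuclear IGF2BP2 knockout 1 or cytoplasmic control 3 (adjusted p up to 0.066). For these 3 genes both fractions fell, with the larger fall in cytoplasmic RNA.

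**Figure D4:**
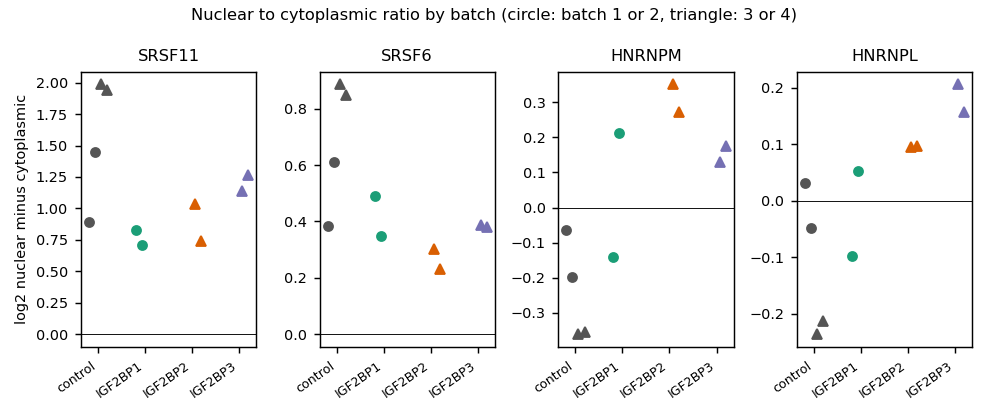
Log2 nuclear over cytoplasmic RNA by batch for SRSF11, SRSF6, HNRNPM and HNRNPL in control and each knockout; circles are batches 1 and 2, triangles batches 3 and 4, and each panel has its own scale. The batch 1 point of the IGF2BP1 knockout uses the library that carries both labels. Triangles of the IGF2BP2 and IGF2BP3 knockouts lie below the control triangles for SRSF11 and SRSF6 and above them for HNRNPM and HNRNPL.

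Other RNAs moved with these ratios. The ratio fell for 6 of 7 nuclear-retained marker RNAs in the IGF2BP2 knockout (median log2 -1.28), for 7 of 7 in the IGF2BP3 knockout (-0.62) and for 0 of 7 in the IGF2BP1 knockout (-0.43). Over all genes it was called lower for 9.35%, 6.06% and 1.09% and higher for 8.68%, 4.1% and 1.9%, in that order. The summed level of these markers in cytoplasmic RNA was 502 to 539.7 CPM in controls, 679 to 681 in the IGF2BP1, 1255 to 1320.0 in the IGF2BP2 and 724 to 1378 in the IGF2BP3 knockout. It was 1037 to 1144 CPM in total RNA of controls, 1866 to 1915 in the IGF2BP2 and 2203 to 2466 in the IGF2BP3 knockout. The 8 cytoplasmic marker mRNAs, among them GAPDH and ACTB, fell in total and cytoplasmic RNA of both knockouts, 8 of 8 each time, and the ratio of 6 of 8 rose in the IGF2BP2 and of 2 of 8 in the IGF2BP3 knockout. Their median changes in total and cytoplasmic RNA were -0.85 and -0.77 in the IGF2BP2 knockout (-0.40 and -0.39 for the splicing regulators). In the IGF2BP3 knockout they were -0.61 and -0.48 (-0.49 and -0.51 for the splicing regulators). The 8 mitochondrially encoded mRNAs were all higher in nuclear RNA of the IGF2BP3 knockout (median log2 0.76) and all rose in ratio there (median 0.90), while in the IGF2BP2 knockout 2 of 8 fell in ratio (median -0.33) and in the IGF2BP1 knockout 1 of 8 rose (median 0.40). Their summed level in nuclear RNA was 15086 to 17942 CPM in controls, 18228 to 19815 in the IGF2BP1, 14227 to 15077 in the IGF2BP2 and 28795 to 30457 in the IGF2BP3 knockout, the highest of the 4 groups. The part of these markers in the nuclear levels and ratios of the splicing regulators was not tested. The count of called ratios rested on few libraries: in the IGF2BP2 knockout it was 4 without nuclear control 3, 5 without cytoplasmic control 3, 6 without nuclear IGF2BP2 knockout 1 or cytoplasmic IGF2BP2 knockout 2 and 7 without cytoplasmic control 4 or cytoplasmic IGF2BP2 knockout 1. In the IGF2BP3 knockout it was 8 without nuclear control 1 or 2 and 11 without either nuclear library of the IGF2BP1 knockout, and in the IGF2BP1 knockout 6 without nuclear control 1 and 4 without the library that carries both labels. Without the batch term 5 ratios were called in the IGF2BP2 and 0 in the IGF2BP3 knockout.

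The machinery around the SR and hnRNP proteins changed as follows. Of 37 genes of the core spliceosome, 1 rose and 32 fell in cytoplasmic RNA of the IGF2BP2 knockout, 1 rose and 33 fell in that of the IGF2BP3 knockout and 2 rose and 21 fell in that of the IGF2BP1 knockout, where 64.2%, 64.7% and 44.4% of all genes were called and 33.2%, 33.2% and 21.9% were lower. Their median changes in cytoplasmic RNA were -0.49, -0.62 and -0.10 in that order, against 0.01, 0.02 and 0.01 over all genes. In nuclear RNA the numbers were 3 rose and 18 fell, 2 rose and 21 fell and 2 rose and 4 fell, with 49.7%, 50.4% and 25.7% of all genes called. EFTUD2, a GTPase of the spliceosome, changed by -1.17 in total, -0.86 in nuclear and -1.32 in cytoplasmic RNA of the IGF2BP2 knockout. PRPF8, at the catalytic core, changed by -1.10, -1.07 and -0.91 in the IGF2BP1 knockout, and SF3B3, which helps to recognise the branch site, by -1.02, -0.72 and -1.39 in the IGF2BP3 knockout. The ratio of nuclear to cytoplasmic RNA rose for 12 of the 37 in the IGF2BP2 knockout and for 11 in the IGF2BP3 knockout, and fell for 0 (all genes 8.68% and 4.1% higher).

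Of 9 tested hnRNP proteins whose genes carry another symbol, 2 rose and 5 fell in cytoplasmic RNA after loss of IGF2BP2, and 0 rose and 6 fell after loss of IGF2BP3 (all genes 64.2% and 64.7% called). The medians were -0.13 and -0.53. In nuclear RNA 3 rose and 2 fell (median 0.20) and 1 rose and 5 fell (median -0.36), and in total RNA 0 rose and 3 fell (median -0.02) and 0 rose and 6 fell (median -0.44), in the same order. Of all genes, 49.7% and 50.4% were called in nuclear and 47% and 46.9% in total RNA. PTBP1, the polypyrimidine tract protein that represses exons, changed by -0.65 in total, -0.30 in nuclear and -0.77 in cytoplasmic RNA of the first and by -1.01, -0.71 and -1.05 in those of the second. Of the kinases that phosphorylate SR proteins and their import receptor, 9 of which were tested in cytoplasmic RNA, 4 rose and 5 fell after loss of IGF2BP2, and 3 rose and 5 fell after loss of IGF2BP3. These calls stand against 64.2% and 64.7% of all genes. Their medians were -0.32 and -0.33 in cytoplasmic, -0.12 and -0.32 in nuclear and -0.02 and -0.11 in total RNA. SRPK1, a mostly cytoplasmic SR kinase, changed by -1.01, -0.94 and -1.03 in the IGF2BP3 knockout. The nuclear kinase CLK1 changed by 0.79, 0.41 and 0.97 in the IGF2BP2 knockout, and its relative CLK2 by -0.61, -1.03 and -0.47.

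Among 12 tested SR-related proteins 0 rose and 10 fell in nuclear RNA of the IGF2BP2 knockout, 2 rose and 8 fell in that of the IGF2BP3 knockout and 0 rose and 2 fell in that of the IGF2BP1 knockout. The medians were -0.45, -0.37 and -0.17, against 0.01, 0.01 and 0.00 over all genes, of which 49.7%, 50.4% and 25.7% were called. In cytoplasmic RNA 1 rose and 7 fell (median -0.19), 3 rose and 9 fell (-0.35) and 4 rose and 3 fell (0.01) in the same order. In total RNA 1 rose and 6 fell (median -0.25), 3 rose and 7 fell (-0.30) and 2 rose and 1 fell (-0.05). Of all genes, 64.2%, 64.7% and 44.4% were called in cytoplasmic and 47%, 46.9% and 24.2% in total RNA. RNPS1, which joins the exon junction complex, changed by -0.76 in total, -0.53 in nuclear and -0.82 in cytoplasmic RNA without IGF2BP2, and after loss of IGF2BP3 by -0.79, -0.67 and -0.70 in the same order. LUC7L3 changed by -0.59, -0.78 and -0.19 in the IGF2BP1 knockout. Among 24 other sequence-specific regulators 5 rose and 14 fell in cytoplasmic RNA of the IGF2BP2, 3 rose and 18 fell in that of the IGF2BP3 and 10 rose and 6 fell in that of the IGF2BP1 knockout, with 64.2%, 64.7% and 44.4% of all genes called. The medians were -0.22, -0.33 and 0.03. Among the genes named from this list was ESRP2, an epithelial splicing regulator, which went from 20.4 to 24.9 CPM in total RNA of controls to 0.41 to 0.69 CPM in the IGF2BP3 knockout (-5.34). CELF2 went from 6.61 to 9.99 CPM to 44.3 to 46.0 CPM in the IGF2BP2 knockout (2.58). ESRP1, a relative of ESRP2, was near 0 in total RNA of controls, at 0 to 0.149 CPM, and stood at 1.04 to 1.62 CPM in the IGF2BP2 knockout (adjusted p = 0.000331).

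The neighbouring transcript HNRNPD-DT, which starts beside HNRNPD on the opposite strand, had 7 to 49 counts per library. It was called higher in cytoplasmic RNA of the IGF2BP2 knockout, at 1.12 (SE 0.33, adjusted p = 0.00332), and of the IGF2BP3 knockout, at 0.80 (SE 0.34, adjusted p = 0.0363). In total RNA the changes of 0.98 and 0.99 were not called (adjusted p = 0.0697 and 0.0611). Its reads cannot be told apart from those of HNRNPD where both overlap if reads were counted without strand.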

How the data were processed

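Poly(A) libraries of total, nuclear and cytoplasmic RNA were measured in 32 samples, grouped by the labels into control and 3 knockouts. The authors deposited raw read counts per gene for each RNA kind; STAR, featureCounts, DESeq2 1.44.0 and GRCh38 are named in the submitters' processing notes, without their roles, and the annotation and the strand setting are not given in the sources used here. The deposited FPKM values divide by the genomic span of a gene rather than its exons (100% of genes tested within 0.05 log2), so they served only in alternative fits on log2(FPKM + 1) and log2(FPKM + 0.1), and levels of different genes were compared per kilobase of GENCODE 29 exons. Rows without a gene name took 0.349% to 0.713% of a library's counts. They went through the same filter and fits as named rows, and count among all genes tested.

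Each RNA kind was fitted with edgeR 4.0.16 (R 4.3.3): TMM, the default filter by group, all libraries of the kind, a term per knockout and a batch term; calls were at a Benjamini-Hochberg adjusted p under 0.05 over all genes, and standard errors come from the F statistic. Control fractions were compared with a batch term, and ratios as an interaction over batches 1 to 4. The labels place libraries in shared batches, which pairs them, so the batch term is the replicate block; deviations of same-batch libraries correlated at -0.13 to 0.04 across genes. Biological coefficients of variation were 7.87% in total, 6.88% in nuclear and 2.89% in cytoplasmic RNA, 6.53% between control fractions and 5.27% in the ratio fit.

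Members with values in every library are the 3 highest and 3 lowest control ratios, up to 3 rises and 3 falls per knockout among genes called alike in all RNA kinds, genes called alike in all knockouts, and the 2 largest ratio changes per knockout and direction. Members, lists and markers were chosen with earlier results of these data known. Alternatives were RLE and upper quartile scaling, DESeq2 1.42.0, limma 3.58.1 on FPKM, no filter or 1 CPM in every group, no batch term, own-batch libraries, each library left out, the doubly labelled library or batch 5 left out and, chosen after seeing the data, the IGF2BP3 against IGF2BP2 contrast without controls. Scripts were tested on simulated data. The 7 members with low counts were not tested.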

Additional observations from a re-analysis of the deposited data

Results flagged for a closer look

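The effect of the IGF2BP2 knockout differed between nuclear and cytoplasmic RNA for 14 of 34 tested members by the interaction test in edgeR. Of all genes 18% were called. Among the 14 were 12 of the 16 members described library by library. Those 16 were picked in part by their ratios and changes in these data, so their number is not a result. On the log2 scale the ratio of nuclear to cytoplasmic RNA changed by -1.07 for SRSF11, -0.60 for SRSF6 and -0.45 for HNRNPH1. It changed by 0.67 for HNRNPM, 0.45 for HNRNPD, 0.41 for HNRNPA1, 0.40 for HNRNPUL1, 0.36 for HNRNPA3, 0.34 for HNRNPA2B1, 0.34 for HNRNPF, 0.32 for HNRNPL and 0.31 for HNRNPA0. Several of these calls were fragile: they were lost under 16 of 27 alternatives for HNRNPA2B1 (adjusted p up to 0.251), 15 for HNRNPA0 (up to 0.154), 11 for HNRNPL (up to 0.275), 8 for HNRNPF (up to 0.323), 7 for HNRNPA1 (up to 0.235), 6 for HNRNPUL1 (up to 0.154), 6 for HNRNPA3 (up to 0.124), 3 for HNRNPD (up to 0.066), 2 for HNRNPH1 (up to 0.229) and 1 for SRSF6 (up to 0.0573), and under none for SRSF11 and HNRNPM. In the IGF2BP3 knockout the same test separated the fractions for 4 members, SRSF11 (-0.76), SRSF6 (-0.49), HNRNPM (0.51) and HNRNPL (0.41). Of all genes 10.2% were called there. No library stood apart from the others in any of 64 groups of 4 libraries by Dixon's criterion. These were, for each of the 16 genes, the controls of each RNA kind and the cytoplasmic IGF2BP3 knockout libraries, which span batches 3 to 5. The criterion looks for a single library and cannot show a split between batches. Cytoplasmic HNRNPD in the IGF2BP3 knockout was not marked, at 407 and 415 CPM in batches 3 and 4 and 681 and 668 in batch 5.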

How the results depend on the processing

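Of 155 calls of named members, 91 were kept under every alternative and 64 were lost under at least 1. Without the replicate block (no batch term) 37 were lost, with limma on FPKM 15 (pseudocount 1) or 14 (0.1), with DESeq2 8, with own-batch libraries 8, with upper quartile scaling 7, and with RLE 1. Without the block the members called were 3 in cytoplasmic and 4 in total RNA of the IGF2BP1 knockout, 15 in cytoplasmic RNA between the IGF2BP3 and IGF2BP2 knockouts, and 1, 5 and 0 for the ratio in the IGF2BP1, IGF2BP2 and IGF2BP3 knockouts; the other counts stayed within 1.5 times. For the IGF2BP1 knockout limma gave 1 and 1 in nuclear and 3 and 5 in total RNA, own-batch libraries 1 and 3, and the ratio had 1 by DESeq2 and 2 with no filter. Without the doubly labelled library the counts were 5 in nuclear RNA and 4 for the ratio of the IGF2BP1 knockout, 11 for the ratio of the IGF2BP3 knockout, and 14 in nuclear and 18 in total RNA between the IGF2BP3 and IGF2BP2 knockouts. The last contrast had 14 and 18 with own-batch libraries and 23 in total RNA with no control, a setting chosen after seeing the data. The cause was not tested.

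Leaving out 1 library at a time, the members called in cytoplasmic, nuclear and total RNA and for the ratio were 9 to 20, 1 to 5, 4 to 22 and 0 to 6 in the IGF2BP1 knockout, 28 to 30, 11 to 25, 16 to 31 and 4 to 20 in the IGF2BP2 knockout, and 27 to 31, 18 to 25, 20 to 30 and 3 to 11 in the IGF2BP3 knockout. They were 22 to 24, 8 to 14 and 4 to 19 between the IGF2BP3 and IGF2BP2 knockouts, and 21 to 24 between control fractions. The sign turned for HNRNPUL1 in total RNA of the IGF2BP1 knockout, to 0.25 both without the doubly labelled library and without control 2 (where it was -0.02 and not called, it was called at -0.29 without control 1 and at -0.30 without IGF2BP1 knockout 1), for HNRNPH2 (0.028, IGF2BP2) and HNRNPA0 (0.078, IGF2BP3) in cytoplasmic RNA with upper quartile scaling, and for HNRNPL in cytoplasmic RNA between the IGF2BP3 and IGF2BP2 knockouts without the block (0.12). Depth limits what can be said of HNRNPD-DT, with 7 to 49 counts per library, and of the 7 untested members, with at most 14.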
